A study of Rattus norvegicus with 28 samples.

Results

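The fibrillar collagens described here are 6 genes, Col1a1, Col3a1, Col5a1, Col5a2, Col5a3 and Col27a1, of the 32883 genes counted in rat tibialis anterior muscle. They were found by the Ensembl identifier that the study's supplementary gene table pairs with each symbol, and all 6 passed the filter on low counts in every comparison. That table, as used here, names only 1998 genes, picked by how low their p-values were when the study compared VDR-OE with control muscles. That the 6 genes can be named at all therefore rests on the VDR-OE comparison, and their calls in it are not independent evidence of a rise.

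RNA-Seq counts were available for both hind legs of 14 male Wistar rats, which were 8 weeks old on arrival and were left to acclimatise before the procedure. In vivo electrotransfer, an injection into muscle followed by electric pulses, was used in every leg. For the injected material the methods name both lenti-shRNA particles and plasmids. In the VDR-OE arm (7 rats) the right leg received a plasmid carrying the mouse vitamin D receptor (mVDR) and the left leg the empty plasmid, named pCAGGS in the labels and pCMV6 in the methods. In the VDR-KD arm (7 rats) the right leg received shRNA against VDR and the left leg scramble shRNA. The study's methods give carprofen, a painkiller, after electrotransfer, collection 10 days after electrotransfer and an overnight fast. They make no separate statement for the VDR-KD arm. All treated legs were right legs, so treatment and side of the body cannot be told apart, and neither can the arm, its injected material and its rats. Whole muscle was sequenced, in which fewer cells of a type and less RNA per cell cannot be told apart.

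Fibrillar collagens are the load-bearing cables of connective tissue. Their chains wind into rod-like molecules in the endoplasmic reticulum, lose their end pieces outside the cell, and pack side by side into fibrils that lysyl oxidases then cross-link. In skeletal muscle the fibrils lie in the sheaths around fibres and fascicles and are made mainly by fibroblasts and fibro-adipogenic progenitors rather than by the fibres themselves. Type I collagen (Col1a1 with Col1a2) and type III collagen (Col3a1) form the bulk of the fibrils. Type V collagen (chains Col5a1, Col5a2 and Col5a3) sits inside type I fibrils, helps to start them and limits their width. Type XXVII collagen (Col27a1) is a fibrillar collagen best known from cartilage.

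In RefSeq (assembly GRCr8) Col1a1 (ENSRNOG00000003897) lies on chromosome 10, Col5a1 (ENSRNOG00000008749) on 3, Col5a3 (ENSRNOG00000020525) on 8 and Col27a1 (ENSRNOG00000007657) on 5. Col3a1 (ENSRNOG00000003357) and Col5a2 (ENSRNOG00000003736) neighbour each other on chromosome 9, 38.2 kb apart with 0 annotated genes starting between them. All 6 were matched to RefSeq by NCBI gene number, and 4 of them had an entry in its promoter table (250 bases before and 50 after a transcript start). Upstream bases of Col5a2, Col5a3 and Col27a1 are shown because these genes moved together with the other members in the VDR-OE legs, and those of Col1a2, the partner chain of Col1a1, because Col1a1 had no entry. Only bases that lie before every annotated transcript of a gene are given, 5′ to 3′ on the gene's strand. Col5a1, the fourth member with an entry, had 0 such bases and is not shown. Capitals mark, on either strand, the letters TATAAA of the element that places the start of transcription, the letters CCAAT that bind the factor NF-Y, the letters GGGCGG that bind Sp1, or a half-site of the vitamin D receptor. Half-sites were searched as AGGTCA, with the variants AGTTCA as well as GGGTCA and also GGTTCA.
Col5a2, chr9:55090152-55090401, minus strand: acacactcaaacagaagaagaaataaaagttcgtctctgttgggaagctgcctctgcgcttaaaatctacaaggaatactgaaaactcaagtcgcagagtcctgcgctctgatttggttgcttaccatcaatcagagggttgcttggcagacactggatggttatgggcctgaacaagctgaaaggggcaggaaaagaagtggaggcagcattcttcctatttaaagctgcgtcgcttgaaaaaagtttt
Col5a3, chr8:27626003-27626198, minus strand: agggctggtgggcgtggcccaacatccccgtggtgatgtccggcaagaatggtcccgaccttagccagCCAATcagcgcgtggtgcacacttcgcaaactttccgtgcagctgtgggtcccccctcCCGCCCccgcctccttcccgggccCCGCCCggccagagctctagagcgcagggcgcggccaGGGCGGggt
Col27a1, chr5:81662658-81662821, plus strand: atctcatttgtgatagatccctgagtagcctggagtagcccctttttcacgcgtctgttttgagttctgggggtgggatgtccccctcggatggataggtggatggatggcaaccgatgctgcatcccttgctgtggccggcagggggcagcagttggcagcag
Col1a2, chr4:33518307-33518556, plus strand: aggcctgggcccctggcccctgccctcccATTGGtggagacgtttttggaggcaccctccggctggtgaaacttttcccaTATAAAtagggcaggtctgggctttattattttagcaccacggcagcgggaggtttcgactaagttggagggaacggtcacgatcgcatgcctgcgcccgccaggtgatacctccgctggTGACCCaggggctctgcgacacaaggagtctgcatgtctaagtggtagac

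Over the whole window of 300 bases, GC content was 72% for Col5a1, 69% for Col5a3, 61% for Col27a1 and 47.7% for Col5a2, against a median of 51.7% over 33469 promoters. The letters GGGCGG occurred 3 times for Col5a3, 2 times for Col27a1, once for Col5a1 and not for Col5a2, and 33.1% of all promoters held it. CCAAT was found for Col5a3 only among these 4 (37.5% of all promoters), and TATAAA for none of the 4 (14.2%). The Col1a2 window held TATAAA on the plus strand, 170 bases before the annotated start, and 1 half-site and 1 match to CCAAT on the minus strand. The half-site lay 50 bases before that start. Whether transcription begins at the annotated start in muscle was not tested, so the half-site may not lie upstream of it. None of the 4 members' windows held a half-site, which 44.4% of all promoters did, nor a pair of half-sites 3 bases apart in the same direction (DR3, 0.0986% of all promoters). These matches describe letters in a short window and say nothing of sites elsewhere.

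Total counts ranged from 36684220 to 46312167 per muscle, and the 6 genes together took a median of 0.286% of them in VDR-OE control, 0.566% in VDR-OE, 0.586% in VDR-KD control and 0.413% in VDR-KD legs. Counts per muscle ran from 12605 to 163822 for Col1a1 and from 51 to 528 for Col27a1, the member with the fewest reads. Vdr checked the labels. It rose in the VDR-OE legs (log2 fold change 8.52, SE 1.49, adjusted p = 0.0228 in edgeR's quasi-likelihood test, adjusted by Benjamini-Hochberg over all genes tested, as throughout), where reads of the mouse transgene assigned to rat Vdr are included. In the leg labelled VDR-OE of rat 419, however, Vdr was at 5.45 CPM (counts scaled to library size, corrected for library composition by the trimmed mean of M values, TMM) against 5.75 in its control leg, and rat 418 reached 201 CPM where the other 5 VDR-OE legs held 1986 to 5938. Vdr was not shown to be lower in the legs labelled VDR-KD, with a log2 fold change of -0.26 (SE 0.40, adjusted p = 0.839). It was lower in 4 of those legs and higher in 3, so directions in that arm are those of the labels only.

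The major fibril collagens were higher in VDR-OE than in control legs of the same rats. Col1a1, the main chain of type I collagen, stood at 383 to 1732 CPM (median 892, n = 7) in VDR-OE control legs and at 603 to 2794 CPM (median 1601, n = 7) in VDR-OE legs. The group ranges overlapped, but within each of the 7 rats Col1a1 was higher on the VDR-OE side. The fitted rise was 1.79-fold (log2 0.84, SE 0.15, adjusted p = 0.0224, edgeR's quasi-likelihood test with the rat as a block). Col3a1, the only chain of type III collagen, ran from 926 to 3110 CPM (median 1721) in control and from 1320 to 5197 CPM (median 3289) in VDR-OE legs. Within rats it rose in 7 of 7, by 1.78-fold (log2 0.84, SE 0.16, adjusted p = 0.0271).

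Type V collagen rose through each of its chains. Col5a1, the chain common to nearly all type V molecules, was at 53.2 to 185 CPM (median 99.8) in control and at 70.6 to 369 CPM (median 153) in VDR-OE legs. Its rise of 1.67-fold (log2 0.74, SE 0.16, adjusted p = 0.0353) was present in 7 of 7 rats, although in rat 416 both legs stood near 100 CPM (100.1 and 100.6). Col5a2, its usual partner chain, went from 57.6 to 155 CPM (median 103) in control to 79.3 to 324 CPM (median 156) in VDR-OE legs, a 1.60-fold rise (log2 0.68, SE 0.16, adjusted p = 0.0381). Rat 416 was its exception, with 113 CPM in the control and 98 CPM in the VDR-OE leg. Col5a3, the least widespread type V chain, lay between 50 and 95 CPM (median 58.4) in control and between 58.2 and 172 CPM (median 85) in VDR-OE legs. It had the smallest fold of the 6, 1.41-fold (log2 0.49, SE 0.11, adjusted p = 0.0363), with higher values on the VDR-OE side in 7 of 7 rats.

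Col27a1, at the lowest CPM of the members, was at 1.55 to 3.83 CPM (median 2.79) in control and 2.98 to 6 CPM (median 3.95) in VDR-OE legs. It rose 1.53-fold (log2 0.61, SE 0.13, adjusted p = 0.0349) and in 7 of 7 rats.

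**Figure D1:**
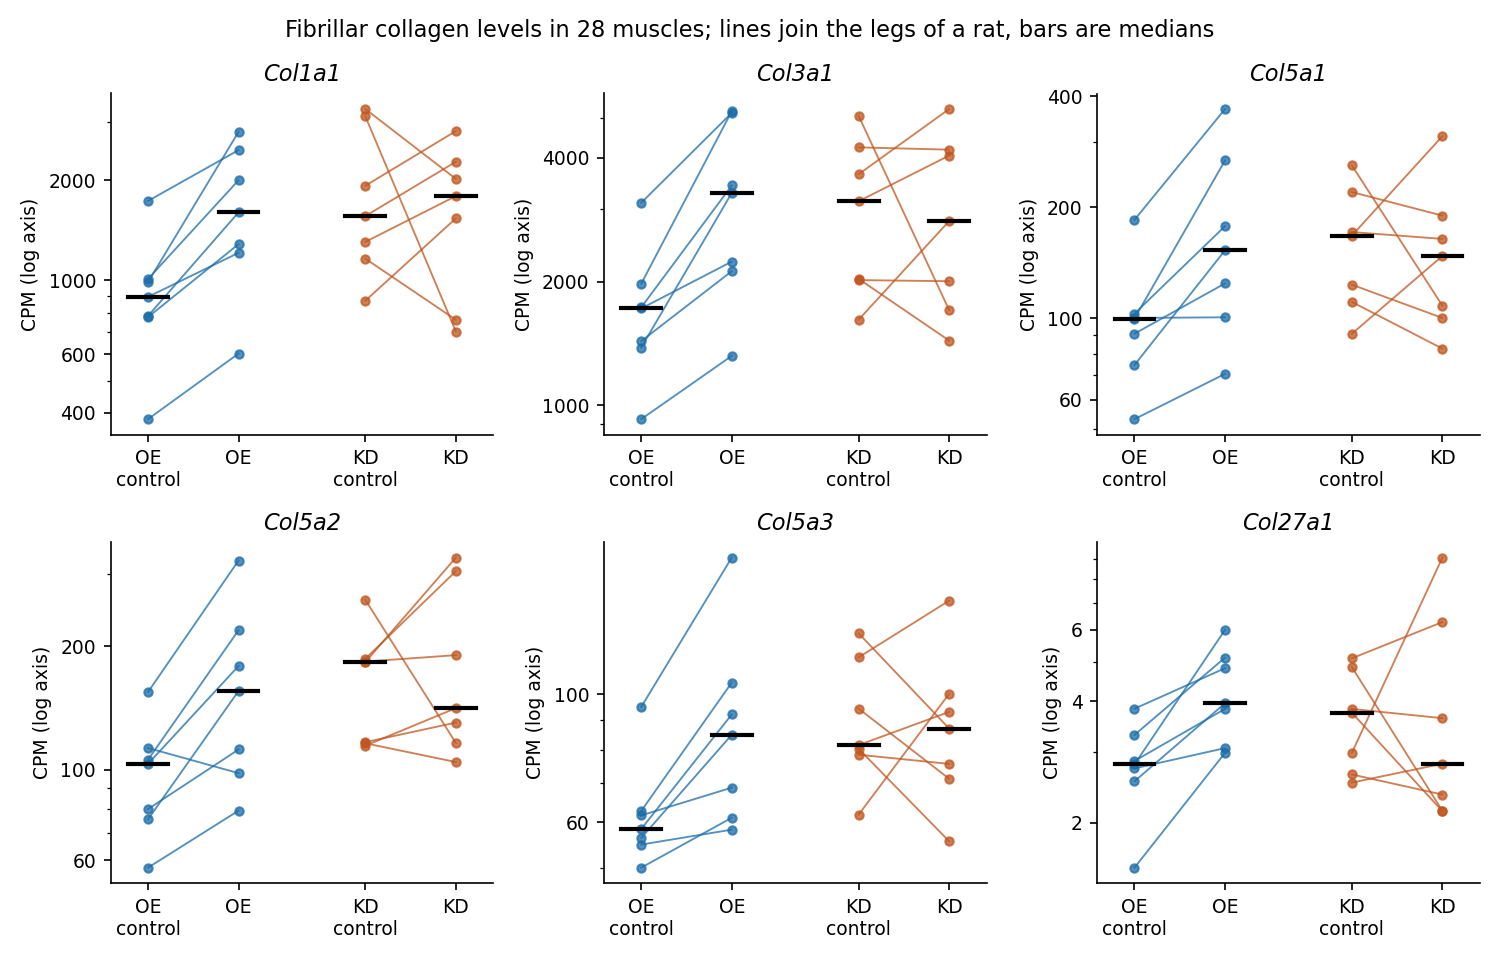
Level of each collagen (CPM, log axis) in the 28 muscles by group, with lines joining the legs of a rat and black bars at group medians. All VDR-OE lines slope upward except that of Col5a2 in rat 416 (113 to 98 CPM), while the VDR-KD lines run in both directions; CPM are not corrected for gene length, so panels are not to be compared in height.

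All 6 members were thus called higher in VDR-OE legs, where 4.08% of the 14526 genes tested were called higher and 7.14% in either direction. Of the 1880 named genes tested, picked by their p-values in the study's same comparison, 28.6% were called higher and 50.1% in either direction. The members were picked in this way too, so nothing is read from their count. Their median log2 fold change was 0.71, against -0.0034 over all genes tested, of which 49.5% had a log2 fold change above 0. Within rats, 5 of the 6 members went up in 7 of 7, which held for 4.95% of genes. The median and this share over all genes cover genes not picked by their p-values, so nothing is read from these either. All 6 were also called by edgeR's likelihood ratio test (adjusted p = 4.29e-06 to 0.00355), by DESeq2 (4.86e-07 to 0.00263), under both other filters and with DESeq2 size factors. In simulated data of this comparison, 16.7% of the likelihood ratio test's calls and 19.7% of DESeq2's were false, against 3.21% for the quasi-likelihood test. Other settings lost the calls at log2 fold changes of similar size. Without the replicate block for the rat 0 of the 6 were called (adjusted p = 0.0687 to 0.129, log2 0.56 to 0.89), in a fit of all 28 muscles 0 (0.0807 to 0.173, log2 0.48 to 0.83), and on library totals without TMM scaling 0 (0.073 to 0.123, log2 0.61 to 0.96). Leaving out rat 416 kept 6 calls, rat 422 left 3, rats 417 and 419 left 1 each, and rats 418, 420 and 421 left 0, while the log2 fold changes of the members stayed between 0.43 and 0.92. Without rats 418 and 419, whose VDR-OE legs had the lowest Vdr, 0 were called (adjusted p = 0.132 to 0.161) and log2 fold changes were 0.38 to 0.79.

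The size of the rise differed between rats. For Col1a1 the log2 change from control to VDR-OE leg was 0.73 in rat 416, 0.44 in rat 417, 1.5 in rat 418, 0.51 in rat 419, 0.98 in rat 420, 1.03 in rat 421 and 0.65 in rat 422. Averaged over the 6 members, it was lowest in rat 416 (0.26) and highest in rat 418 (1.12). Rat 419, whose leg labelled VDR-OE showed no Vdr rise, averaged 0.75 and was higher in all 6 members. Its changes ran from 0.33 for Col27a1 to 1.07 for Col5a2.

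In the legs labelled VDR-KD no member was shown to differ from the scramble control. Col1a1 spanned 869 to 3271 CPM (median 1560) in VDR-KD control and 702 to 2809 CPM (median 1792) in VDR-KD legs, and Col3a1 1616 to 5063 CPM (median 3138) and 1438 to 5259 CPM (median 2809). The ranges overlapped almost fully. Col5a1 was at 90.7 to 260 CPM (median 168) and 82.7 to 312 CPM (median 148), and Col5a2 at 114 to 260 CPM (median 183) and 104 to 329 CPM (median 141). Col5a3 lay at 61.8 to 127 CPM (median 81.6) and 55.6 to 145 CPM (median 87.1), and Col27a1 at 2.52 to 5.10 CPM (median 3.74) and 2.14 to 9.05 CPM (median 2.80). Fitted log2 fold changes were between -0.12 for Col1a1 and 0.12 for Col5a2, with adjusted p from 0.868 to 0.982, and were above 0 for 1 of the 6, as for 51.6% of genes. In this arm 0% of 14652 genes were called by edgeR's quasi-likelihood test (0 also by its likelihood ratio test and by DESeq2), and 2.7% had an unadjusted p under 0.05, among them 0 of the 6 members. Higher in all 7 VDR-KD legs were 0 of the 6 members and 0.424% of genes.

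These are wide intervals rather than evidence of no change. The 95% interval of the log2 fold change was -0.96 to 0.73 for Col1a1, -0.71 to 0.64 for Col3a1 and -0.42 to 0.34 for Col5a3. Within rats the members moved in both directions. In rat 425 all 6 were lower in the VDR-KD leg, and Col1a1 fell by 2.15 on the log2 scale, from 3109 to 702 CPM. In rat 426 all 6 were higher, with Col27a1 moving from 2.98 to 9.05 CPM, and in rat 423 5 of 6 were higher. The summed level of 8 named macrophage and leukocyte markers in rat 425 was 1906 CPM in the control and 678 CPM in the VDR-KD leg, and that of 3 fibroblast markers 231 and 149 CPM. The macrophage and leukocyte sum also moved with the members in rat 426 (940 and 2300 CPM), but against them in rat 423 (945 and 423 CPM). In rats 424 and 427, where 2 and 1 of the 6 members were higher, it went from 710 to 2626 and from 580 to 1945 CPM. In rats 428 and 429, where 4 and 2 members were higher, it went from 1384 to 2042 and from 489 to 807 CPM. Whether these had a part in the collagen values was not tested.

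**Figure D2:**
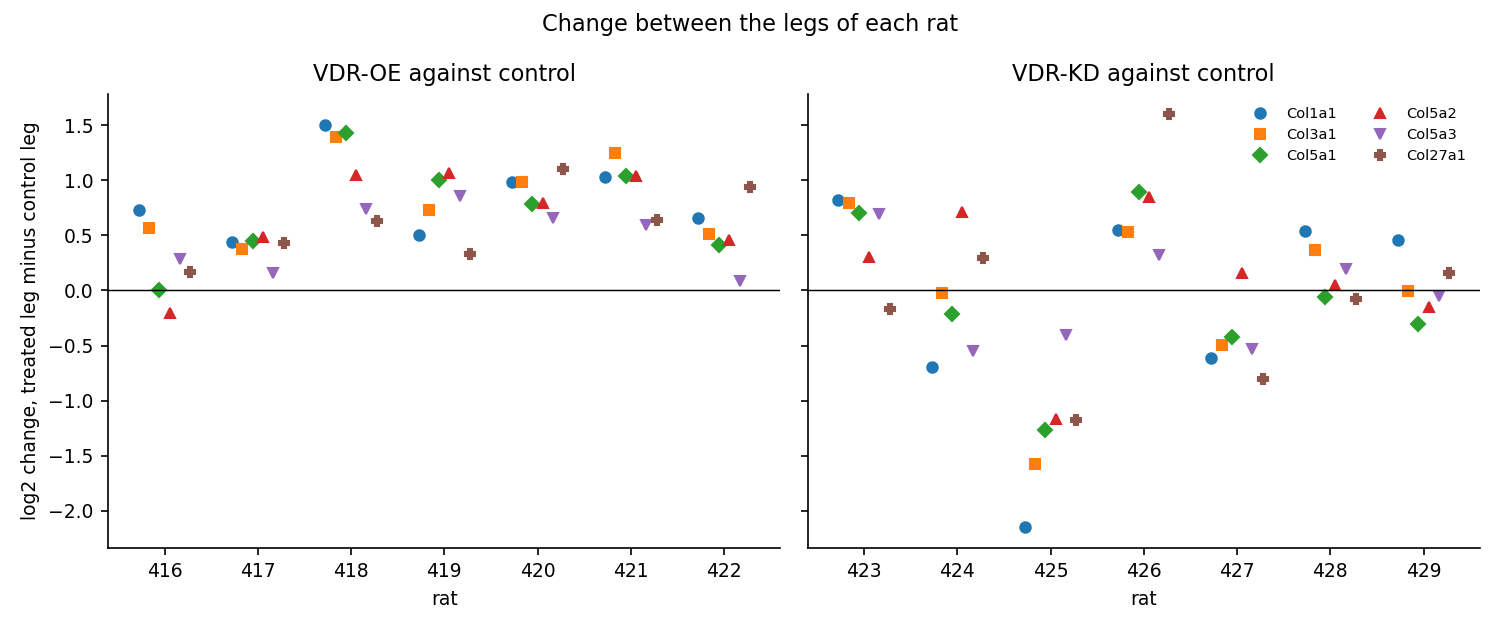
Log2 change from the control to the treated leg of each rat (y axis) for the 6 collagens (symbols), in the VDR-OE arm (left) and the VDR-KD arm (right). All VDR-OE points but one lie above 0 (Col5a2 in rat 416, -0.20), whereas VDR-KD points run from -2.15 (Col1a1, rat 425) to 1.60 (Col27a1, rat 426).

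Whether the leg effect differed between the arms was tested in all 28 muscles. The effect in the VDR-OE arm exceeded that in the VDR-KD arm for all 6 genes, by 0.53 (Col5a3) to 0.96 (Col1a1) on the log2 scale, but no difference passed adjustment (adjusted p = 0.577 to 0.753). Over all genes 54.6% of differences were above 0. Without rat 425 the members' differences were 0.35 to 0.65. Unadjusted p-values of edgeR's quasi-likelihood test were under 0.05 for 4 of the 6 (Col1a1, Col3a1, Col5a1 and Col5a3), as for 7.27% of the 15112 genes in either direction and 3.37% in this one, and 0% were called after adjustment (18 genes by the likelihood ratio test and 44 by DESeq2, none a member). These shares cover genes not picked by their VDR-OE p-values, whereas the members were, and that change is a part of this difference, so nothing is read from the count. For Col5a1 the difference was 0.83 (95% interval 0.17 to 1.48), and for Col27a1 0.63 (-0.10 to 1.36).

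The order of the levels put VDR-OE control legs lowest for every member. By median, Col1a1 rose from VDR-OE control (892 CPM) to VDR-KD control (1560), VDR-OE (1601) and VDR-KD (1792). Col5a2 followed the order VDR-OE control (103), VDR-KD (141), VDR-OE (156) and VDR-KD control (183). For Col27a1 the medians of VDR-OE control (2.79) and VDR-KD (2.80) were next to each other. Ranges of neighbouring groups overlapped for every gene.

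The control legs of the arms were compared because both had received electrotransfer without a VDR construct. VDR-KD control legs had higher fitted levels than VDR-OE control legs for all 6 members (48.8% of genes), from log2 0.39 for Col27a1 (SE 0.21, adjusted p = 0.260) to log2 1.01 for Col1a1 (SE 0.34, adjusted p = 0.123). None passed adjustment in edgeR's quasi-likelihood test, which called 0.0277% of 14458 genes. Unadjusted p-values were under 0.05 for 5 of the 6, all higher in VDR-KD control, against 23.3% of genes in either direction and 12.7% in this one. The members were named through their difference from the same VDR-OE control legs, so nothing is read from this count either. DESeq2 called 3 members (Col1a1, Col5a2 and Col5a3) and the likelihood ratio test 1 (Col5a2). In simulated data of this comparison, 19.8% of DESeq2's calls and 11.3% of the likelihood ratio test's were false, against 4.29% for the quasi-likelihood test. The summed macrophage and leukocyte markers had medians of 418 CPM in VDR-OE control and 940 CPM in VDR-KD control legs, and the fibroblast markers 130 and 181 CPM, and their part in these values was not tested. The comparison of VDR-OE with control shares the VDR-OE control legs with this one, so its log2 fold changes are only set first beside those of the controls, with 0.84 and 1.01 for Col1a1, 0.84 and 0.83 for Col3a1, 0.74 and 0.70 for Col5a1, 0.68 and 0.75 for Col5a2, 0.49 and 0.54 for Col5a3 and 0.61 and 0.39 for Col27a1.

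**Figure D3:**
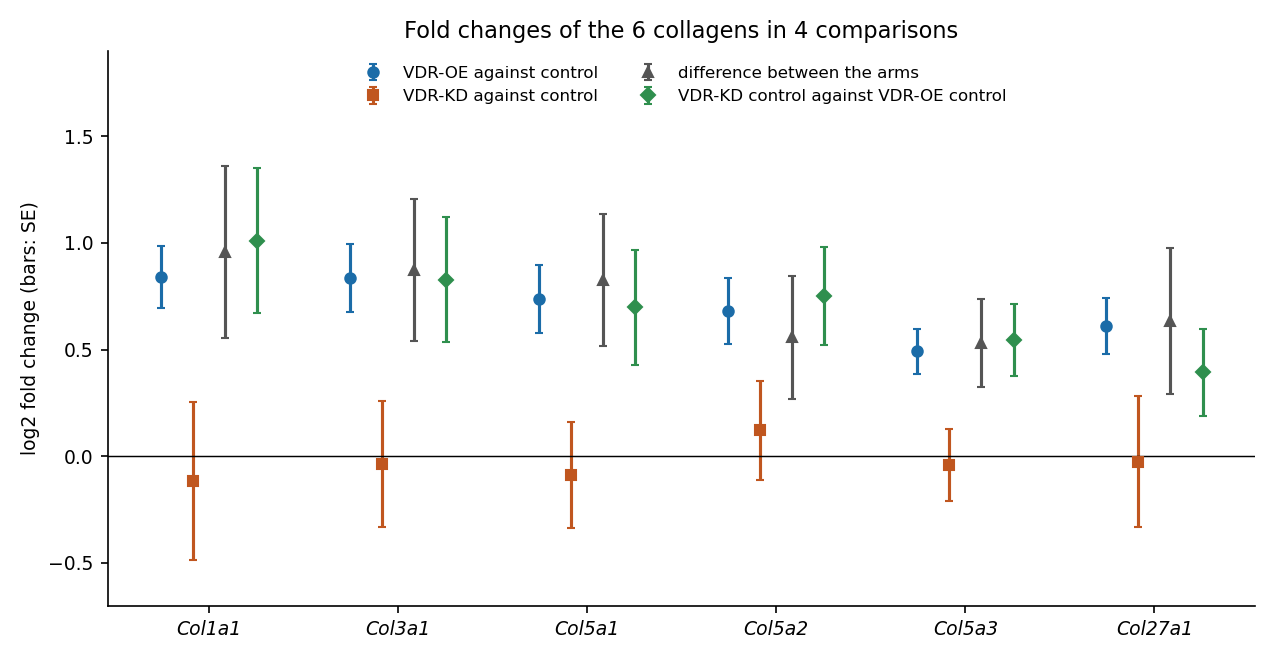
Fitted log2 fold change of each collagen (bars, SE) in the 4 comparisons. The VDR-OE points lie between 0.49 and 0.84 with the shortest bars, the VDR-KD points between -0.12 and 0.12, and the differences between arms and between control groups between 0.39 and 1.01 with wider bars.

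Ratios between chains describe the make-up of the fibril message apart from its amount and do not depend on library scaling. They were taken as log2 of the ratio of counts in 1 muscle and are read only as changes, since counts are not per length. Over the 28 muscles the level of Col1a1 spanned 3.09 log2 units (SD 0.79), while its ratio to Col3a1 spanned 1.12 (SD 0.23). The ratio Col5a1:Col5a2 spanned 0.98 units (SD 0.23), against 2.80 for the Col5a1 level. The spread of each of the 6 ratios examined was thus below that of the Col1a1 level, the most variable of the members. Against their own chains some gaps were smaller. The SD of Col5a3:Col5a1 was 0.33, beside 0.45 for the Col5a3 and 0.68 for the Col5a1 level. That of Col27a1:Col5a1 was 0.39, beside 0.55 for the Col27a1 level.

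In VDR-OE legs the ratio Col1a1:Col3a1 was -0.94 ± 0.17 (SD, n = 7) in control and -0.93 ± 0.15 in VDR-OE legs, a mean change within rats of 0.01 ± 0.16, higher in 4 of 7 rats (exact two-sided sign-flip permutation test, p = 0.938). Col5a1:Col5a2 changed by 0.06 ± 0.17 (exact p = 0.5). Col5a1:Col1a1 changed by -0.10 ± 0.36 and Col27a1:Col5a1 by -0.13 ± 0.50 (exact p = 0.5 and 0.531). Of the 6 tested ratios the widest shift was that of Col5a3:Col5a1, from -0.62 ± 0.36 to -0.87 ± 0.33, a change of -0.25 ± 0.30 that was lower in 6 of 7 rats (exact p = 0.0781, adjusted p = 0.352 over the 18 ratio tests). Col5a3 thus rose by less than Col5a1 in 6 of 7 rats, a difference that did not pass the test. Among the pairs described without a test, Col1a1:Col5a3 changed by 0.35 ± 0.35 and Col3a1:Col5a3 by 0.35 ± 0.27, each higher in 6 of 7 rats. With 7 rats the smallest p that this test can give is 0.0156.

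In the VDR-KD arm Col1a1:Col3a1 changed by -0.10 ± 0.41 (exact p = 0.516) and Col5a1:Col5a2 by -0.20 ± 0.43, lower in 5 of 7 rats (exact p = 0.281). The SD of the change in Col1a1:Col3a1 was 0.41 in this arm and 0.16 in the VDR-OE arm. Between the control groups Col5a1:Col1a1 was lower in VDR-KD control (-3.46 ± 0.23) than in VDR-OE control legs (-3.19 ± 0.20), by 0.27 on the log2 scale (exact permutation test over all splits of the 14 legs, p = 0.035, adjusted p = 0.352). None of the 18 ratio tests passed adjustment.

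**Figure D4:**
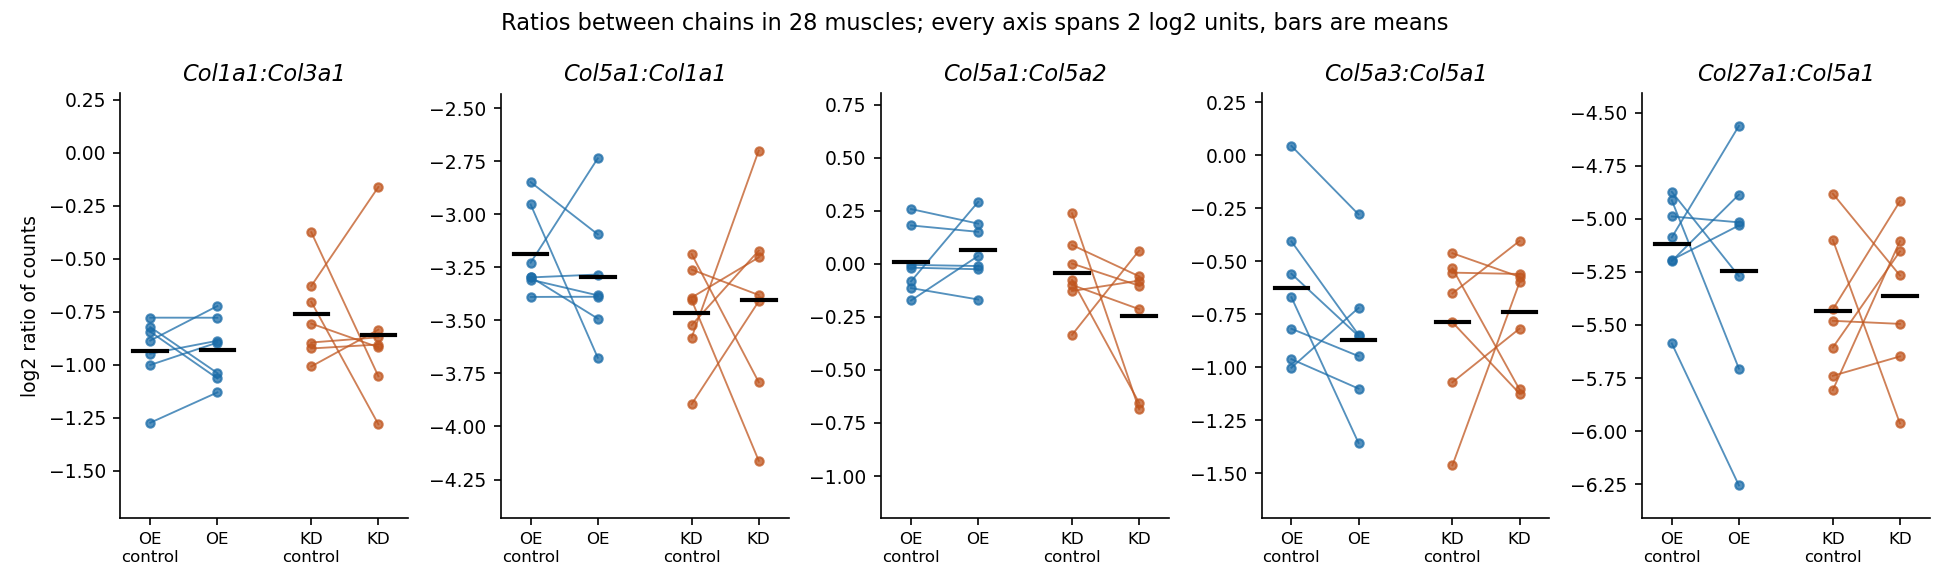
Log2 ratio of counts between chains in each muscle (y axes, each spanning 2 log2 units), with lines joining the legs of a rat and bars at group means. Col1a1:Col3a1 and Col5a1:Col5a2 stay near -0.93 and 0.07 in VDR-OE legs, Col5a3:Col5a1 slopes down in 6 of 7 VDR-OE rats, and VDR-KD lines cross.

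The partner of Col1a1 in type I collagen, Col1a2, could be named only through its NCBI gene number, and its reads were counted at 5.14 to 39.7 CPM over the 28 muscles, far below Col1a1. A second row with the same placeholder symbol moved with it, so reads shared by near-identical gene copies may have been split or dropped in counting, and the Col1a2 level is uncertain. Its change was nevertheless measured as 1.98-fold in VDR-OE legs (log2 0.98, SE 0.17, adjusted p = 0.0218, edgeR) and as log2 0.08 (SE 0.33, adjusted p = 0.944) in VDR-KD legs. The second row changed by 1.75-fold in VDR-OE legs (log2 0.81, SE 0.13, adjusted p = 0.02, edgeR) and by log2 -0.02 (SE 0.32, adjusted p = 0.984) in VDR-KD legs. Col1a1, at log2 0.84 in VDR-OE legs, lay between these 2 rows. The Col1a1:Col1a2 ratio changed by -0.14 ± 0.35 in the VDR-OE arm (exact p = 0.406) and by -0.20 ± 0.21 in the VDR-KD arm, lower in 6 of 7 rats (exact p = 0.0469, adjusted p = 0.352). The second row was not used, and it did not bear these shifts out. In VDR-OE legs its mean change within rats was 0.79, below the 0.84 of Col1a1, against 0.97 for the Col1a2 row. In VDR-KD rats 427 and 428, where the ratio was lower, Col1a1 changed by -0.61 and 0.54. The second row changed there by -0.70 and 0.37, which is the opposite direction for a ratio.

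Members were compared with Vdr across the 7 VDR-OE rats. The larger the Vdr change, the smaller was the Col5a3 change (Pearson's r = -0.787, exact permutation p = 0.00754, adjusted p = 0.0452 over 6 relations; Spearman's rho = -0.929, exact p = 0.00675). Col5a3 changed by 0.86 in rat 419, where Vdr changed by -0.08, by 0.74 in rat 418 (Vdr 5.68), and by only 0.09 in rat 422, which had the widest Vdr change (10.7). Rats 418 and 419 stood apart on the Vdr axis, and without them r was -0.909 over 5 rats, which was not tested. For Col5a2 r was -0.601 (exact p = 0.145, adjusted p = 0.337) and rho -0.964 (exact p = 0.00278), and for Col5a1 -0.587 (exact p = 0.168, adjusted p = 0.337) and -0.857 (exact p = 0.0238). Col1a1 gave r = -0.005 and Col3a1 r = -0.256 (exact p = 0.991 and 0.638), with rho of -0.286 and -0.679 (exact p = 0.556 and 0.110). Col27a1 was the only member with a positive r over 7 rats, 0.320 (exact p = 0.506; rho = 0.143, exact p = 0.783). Rats 418 and 419 decided the values near 0, since over the other 5 rats r was -0.739 for Col1a1, -0.866 for Col3a1, -0.769 for Col5a1, -0.657 for Col5a2 and -0.112 for Col27a1, none of them tested. Both changes of a rat come from the same libraries and share their scaling.

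**Figure D5:**
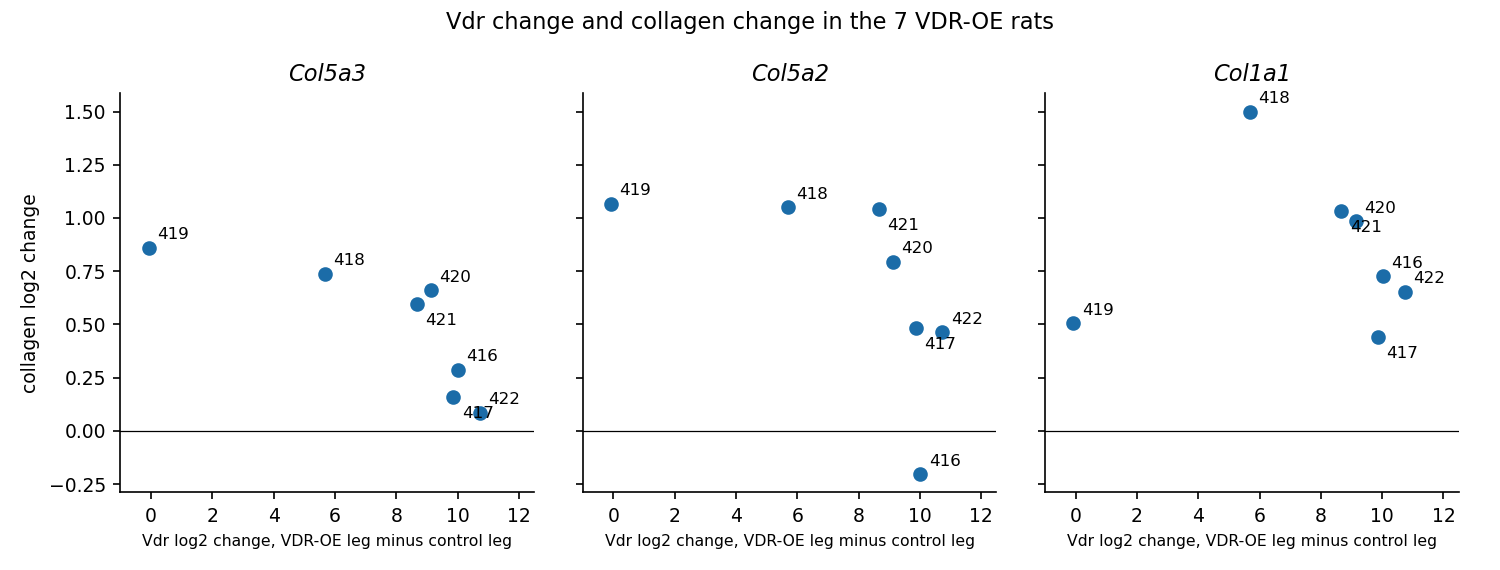
Log2 change of Vdr (x axis) and of Col5a3, Col5a2 and Col1a1 (y axis) between the legs of each VDR-OE rat, labelled by number. The other 5 rats lie between 8.67 and 10.7 on the Vdr axis beside rat 418 at 5.68 and rat 419 at -0.08; Col5a3 and Col5a2 are highest in rat 419 (0.86 and 1.07).

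Genes whose levels ran most alike with each member were sought among the 1998 named genes, over the 28 muscles with log2 CPM centred on the group means. For Col1a1 these were the Col1a2 row (r = 0.971), the second row of that placeholder (0.965) and Lhfp (0.913). For Col3a1 they were Col14a1 (0.972), Col16a1 (0.960) and Adamts2 (0.960), which cleaves the amino end of procollagens. Col5a1 ran with Thbs3, Col6a2 and Col16a1 (0.957 to 0.970), and Col5a2 with Col6a2, Col6a1 and Thbs3 (0.976 to 0.978), Col6a1 and Col6a2 being chains of the beaded-filament collagen VI. Col5a3 was nearest to Arhgef25 (0.935), the gelatinase Mmp2 (0.919) and Dnm1 (0.916). Col27a1 was nearest to Ddr2, a collagen receptor kinase (0.876), Pofut1 (0.866) and Antxr2 (0.865). Among the members the closest pair was Col3a1 with Col5a1 (0.960) and the loosest Col5a3 with Col27a1 (0.647). All muscles share their library scaling across genes, so these are descriptions without a test.

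Other genes of the collagen pathway were counted where the gene table names them, which again follows from the VDR-OE p-values. Of the 1880 named genes tested in that comparison, 50.1% were called and 28.6% called higher, which are the shares to set beside the counts that follow. Of 19 genes of chain modification and folding in the endoplasmic reticulum, 4 were named and 4 rose in VDR-OE legs. Fkbp10, a prolyl isomerase of collagen folding, changed by log2 0.73 (SE 0.10, adjusted p = 0.0163, edgeR), and P3h3, a prolyl 3-hydroxylase relative, by 0.66 (SE 0.08, adjusted p = 0.0159). Ppib, the cyclophilin that works with it, changed by 0.53 and P3h1 by 0.32 (adjusted p = 0.02 and 0.0324).

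Of 13 genes of end-piece removal and cross-linking, 9 were named and 4 rose. These were Loxl1, a lysyl oxidase relative (log2 0.93, adjusted p = 0.0446), Pcolce, which speeds removal of the carboxyl end (0.69, adjusted p = 0.0251), Adamts2 (0.69, adjusted p = 0.02) and Bmp1, the carboxyl-end protease (0.51, adjusted p = 0.0185). Lox, the cross-linking enzyme itself, stood at log2 0.84 (SE 0.22, adjusted p = 0.0509) and was not called. The median over the 9 was 0.69.

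Of 16 proteoglycans and other partners that bind fibrils, 12 were named and 11 rose, with a median log2 fold change of 0.94 over the 12. The highest by level were Sparc, a collagen-binding matrix protein (log2 0.40, adjusted p = 0.0736, not called), Dcn, the small proteoglycan decorin that coats fibrils (0.64, adjusted p = 0.0269), and Fn1, fibronectin (0.93, adjusted p = 0.02). Fbln1 (1.18), Aebp1 (0.95) and Col14a1 (0.98) had the smallest p-values (adjusted p = 0.0163, 0.0163 and 0.0183).

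Of 10 receptors and uptake genes, 4 were named and 1 rose, Ddr2 (log2 0.56, adjusted p = 0.0428), while Mrc2, an endocytic collagen receptor, stood at 0.68 (adjusted p = 0.0501). The integrin chains Itga2 (0.91, adjusted p = 0.0598) and Itga11 (0.42, adjusted p = 0.073) were not called either. Of 10 genes of collagen cleavage and its inhibitors, 4 were named and 3 rose: Mmp2 (log2 0.77, adjusted p = 0.0212), Mmp14, which activates it (0.67, adjusted p = 0.0236), and the inhibitor Timp2 (0.48, adjusted p = 0.0237). Of 14 genes of TGF-beta signalling, a main driver of collagen synthesis, 4 were named. Tgfbr2, a receptor (log2 0.54, adjusted p = 0.022), and the target Tgfbi (0.85, adjusted p = 0.0237) rose, Tgfb2 fell (-0.49, adjusted p = 0.0377), and the ligand Tgfb1 stood at 0.62 (adjusted p = 0.0609). In VDR-KD legs 0 genes of any of these lists were called. List medians there ran from -0.04 for the receptors to 0.35 for TGF-beta signalling, against 0.01 over all genes.

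Markers of cell types moved in the VDR-OE legs as well. Of 12 markers of fibroblasts and fibro-adipogenic progenitors, 3 were named and 3 rose, Pdgfra (log2 0.99, adjusted p = 0.022), Dpt (0.70, adjusted p = 0.0173) and Pdgfrb (0.35, adjusted p = 0.0382). Their summed level was 110 to 175 CPM in VDR-OE control, 147 to 306 in VDR-OE, 143 to 231 in VDR-KD control and 145 to 277 in VDR-KD legs. Of 13 macrophage and leukocyte markers, 8 were named and 4 rose (Mrc1, Cd14, Csf1r and Cd163, log2 1.14 to 1.43), while Lyz2 (1.49), C1qb (1.14) and C1qc (1.10), the highest by level, were not called (adjusted p = 0.0564 to 0.0758). In VDR-KD legs the 8 had a median log2 fold change of 0.60, with 0 called. Those 8 summed to 190 to 759 CPM (median 418) in VDR-OE control, 498 to 1568 (median 1137) in VDR-OE, 489 to 1906 (median 940) in VDR-KD control and 423 to 2626 (median 1945) in VDR-KD legs. Tagln, 1 of 7 markers of myofibroblasts and smooth muscle, rose by log2 0.50 (adjusted p = 0.0267). The part of these markers in the collagen values was not tested. No marker of skeletal muscle fibres, tendon, endothelium, regenerating fibres, fat or Schwann cells had a name, so the labelled tissue could not be checked on its own markers.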

How the data were processed

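The members and gene lists were chosen with earlier results of these data known. Total RNA was extracted from whole muscle, and the authors sequenced TruSeq libraries made from it from both ends (75 bp); the study's discussion speaks of poly(A) capture. Adaptors were removed with trimmomatic, pairs that lost a mate were discarded, and Rsubread served for alignment and counting (rat genome 6.0, Ensembl 89); per the labels, bcl2fastq 2.17.1.14, FastQC 0.11.5 and edgeR 3.18.1 were also used. They deposited raw counts per gene and muscle, without normalisation. The counting options on strand and on reads shared between genes were not given in the sources used here. Total counts were 36684220 to 46312167 per muscle, so that 10 reads stood for 0.239 CPM (VDR-OE arm) or 0.251 CPM (VDR-KD arm). The fold changes and p-values in the study's supplementary gene table were not used, only its pairing of identifiers and symbols.

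Samples were grouped by the VDR status in the labels and paired by the animal number, that is, both legs of 1 rat. Genes had to lie above the CPM of 10 reads in 7 or more muscles. Each arm was fitted on its own in edgeR 4.0.16 (R 4.3.3) with TMM scaling and the animal as a block, using the quasi-likelihood F test. The difference between the arms was fitted on all 28 muscles with the rats as a block, and the control groups on their 14 legs without one. The methods point to the likelihood ratio test, which was run as an alternative. The fits were tested on simulated data in which 200 genes were changed by 1 on the log2 scale, and calls of any other gene were counted as false. P-values were adjusted over all genes tested (Benjamini-Hochberg), at a threshold of 0.05. CPM come from 1 TMM scaling of all 28 muscles, and within-rat changes are log2 CPM with a prior count of 0.5. Chain ratios were log2 of counts plus 0.5, tested by exact permutation. Deviations from group means correlated at a mean r of 0.243 between legs of a rat in the VDR-OE arm (-0.041 between other legs) and -0.105 in the VDR-KD arm (0.018). The lowest r between legs of a rat was -0.190 in the VDR-OE arm and -0.548 in the VDR-KD arm. No 2 files were identical, and all 84 pairs of muscles within a group differed beyond counting noise (chi-square per degree of freedom at least 30.2).

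The genes named are the 6 members, Vdr, other fibrillar collagens with a symbol, from each list the 3 with the smallest p-values in VDR-OE and the 3 highest by level, and for each member the 3 named genes most like it. P3h1, Lox and Cd163 fall outside this rule and were named after their values were seen, as was the Col1a2 promoter. Alternatives were the likelihood ratio test, DESeq2 1.42.0, no block, other filters, all 28 muscles in 1 fit, other scalings and leaving out each rat, and, added after seeing the data, leaving out rats 418 and 419.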

Additional observations from a re-analysis of the deposited data

Results flagged for a closer look

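Dixon's test for a stray value was applied to 66 groups of 7 values (levels, within-rat changes and chain ratios), and 2 values passed its limit of 0.568. Chance alone flags about 1 in 20 groups. The Col5a3 level in the VDR-OE control leg of rat 419 was 6.57 log2 CPM, with the nearest of the other 6 control legs at 5.97 and the lowest at 5.64. The Col1a1:Col3a1 ratio in the VDR-KD leg of rat 429 was -0.16 on the log2 scale, with the nearest of the others at -0.83 and the lowest at -1.28.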

How the results depend on the processing

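In VDR-OE legs the direction of all 6 members held under every alternative run, but the calls did not. Genes called over the whole table were 1037, 2262 with the likelihood ratio test, 2767 with DESeq2, 887 without the replicate block, 229 in a fit of all 28 muscles, 4 without TMM, 2 without rats 418 and 419, and 0 to 4768 when each rat was left out. Of the 6 members, 6 were called with the likelihood ratio test, DESeq2, either other filter and DESeq2 size factors, but 0 without the replicate block, 0 in the fit of all 28 muscles, 0 without TMM, 0 without rats 418 and 419, and 0 to 6 when each rat was left out. The difference between the arms called 18 genes with the likelihood ratio test, 44 with DESeq2, 1 with the filter passed in 2 muscles, 1 without a filter, 1 without rats 418 and 419, and 0 to 1 on leaving out each rat. Between control groups 4 genes were called, 441 with the likelihood ratio test (1 member), 1028 with DESeq2 (3 members), 12 with the filter passed in 2 muscles, 7 without a filter, 132 in the fit of all 28 muscles, 12 with DESeq2 size factors, 0 without TMM, and 0 to 787 on leaving out each rat. The causes were not tested. Library totals without TMM moved the median log2 fold change of all genes by 0.12 in VDR-OE, 0.23 in VDR-KD and 0.12 between controls, and by -0.12 in the difference between the arms.

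The log2 fold changes of the members in VDR-KD legs, all uncalled, changed sign in 16 refits and kept it in 74. Without the replicate block Col27a1 was 0.16. Without TMM Col1a1 was 0.14, Col3a1 0.21, Col5a1 0.15, Col5a3 0.19 and Col27a1 0.21. Leaving out each rat gave -0.29 to 0.19 for Col1a1, -0.19 to 0.21 for Col3a1, -0.26 to 0.11 for Col5a1, -0.0056 to 0.33 for Col5a2, -0.17 to 0.043 for Col5a3 and -0.29 to 0.17 for Col27a1, the highest coming without rat 425 for all but Col5a3. Ratios crossed 0 on leaving out 1 rat for Col1a1:Col3a1 in VDR-OE (-0.021 to 0.043), for Col5a1:Col1a1 (-0.076 to 0.20), Col5a3:Col5a1 (-0.087 to 0.15) and Col27a1:Col5a1 (-0.035 to 0.23) in VDR-KD, and for Col1a1:Col1a2 between controls (-0.018 to 0.092). A prior count of 2 changed no ratio's direction. Spearman's rho with Vdr passed adjustment for Col5a1 (-0.857, adjusted p = 0.0476) and Col5a2 (-0.964, adjusted p = 0.0167), where Pearson's r did not, and without the 2 farthest rats Col27a1 had r = -0.112. Col27a1 rests on 51 to 528 reads per muscle, the least of the members.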

Other observations

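Whether a rat with much collagen message in one leg also had much in the other was examined after seeing the data, in 12 relations (6 members in 2 arms). In the VDR-OE arm the levels of the control and the VDR-OE leg (log2 CPM) correlated at r = 0.871 for Col1a1 (exact permutation p = 0.0145, adjusted p = 0.0661; rho = 0.786, exact p = 0.048) and at r = 0.900 for Col5a3 (exact p = 0.0109, adjusted p = 0.0661; rho = 0.857, exact p = 0.0238). The lowest was Col27a1 (r = 0.644, exact p = 0.106, adjusted p = 0.212; rho = 0.607, exact p = 0.167). Without the 2 rats farthest from the median of the control legs, r was 0.687 for Col1a1, 0.591 for Col3a1, 0.536 for Col5a3 and 0.427 for Col27a1. For Col5a1 it was 0.145 (from 0.830, exact permutation p = 0.022, adjusted p = 0.0661) and for Col5a2 0.093 (from 0.760, exact permutation p = 0.0478, adjusted p = 0.115). Leaving out the extremes of the control level narrows its range, which can lower r by itself. These drops therefore cannot show whether the relations rest on those rats. In the VDR-KD arm r was between -0.017 for Col1a1 (exact p = 0.970, adjusted p = 0.970; rho = 0.250, exact p = 0.595) and 0.354 for Col5a2 (exact p = 0.418, adjusted p = 0.664; rho = 0.214, exact p = 0.662). Without the 2 farthest rats r was 0.917 for Col3a1, 0.758 for Col5a1, 0.637 for Col1a1, 0.017 for Col5a2, -0.367 for Col27a1 and -0.544 for Col5a3. These values thus moved in both directions when 2 rats were left out. None of the 12 passed adjustment, and the difference between the arms was not tested.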
